A study of Rattus norvegicus with 2 samples.

Results

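DNA repair genes were followed through a piggyBac mutagenesis screen in rat haploid embryonic stem cells (haESCs). The group was chosen by gene symbol alone, from the families Fanc, Rad, Xrcc, Msh, Mlh, Pms, Brca, Palb2, Atm, Parp, Ercc, Lig, Xpa, Xpc, Mre11, Nbn and the DNA polymerases Polb to Polq, and no measured value entered the choice. It took 78 of the 18156 genes listed. The name is wider than DNA repair in a few places, since symbols of this form also belong to the replicative and mitochondrial polymerases, to the cohesin subunit Rad21, to ADP-ribosyltransferases of other roles and to the helicases Rad54l2 and Ercc6l, which are given here under their own roles.

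The cells were of the RAH-1 line, rat haESCs with 1 set of chromosomes, in which a green fluorescent protein (GFP) stands behind Rex1, a marker of the naive pluripotent state. All cells compared had received the PB-SA-RFP gene trap, a piggyBac transposon with a splice acceptor and a red fluorescent reporter. The library labelled before screening is PB-Ctrl, the mutant pool sorted for both colours. The library labelled after screening is PB-Diff, and, per the study's methods, such cells had gone through random differentiation, were sorted for GFP that had stayed on, and were replated in stem cell medium with feeders. Each condition is 1 library of 1 cell line, so there is no replicate check, and every difference below is one between these libraries. The identity of the cells cannot be checked here, since the table holds insertions in DNA and no marker expression. The libraries held 1528935 insertions in genes from 2824155 reads before and 1287231 from 2351082 reads after screening.

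As background, DNA repair works through several pathways that each read a particular kind of damage. Excision repair removes damaged bases or bulky lesions, mismatch repair corrects errors of replication, end joining and homologous recombination mend broken chromosomes, and the Fanconi anaemia pathway deals with strands that are cross-linked. Embryonic stem cells divide fast and rely strongly on faithful replication and recombination. In a haploid cell a gene trap can remove the gene's single copy, so the number of insertions in a gene after a period of growth depends both on how often the transposon landed there and on how the mutant cells fared. Fewer cells with an insertion and fewer sites hit in a gene cannot be told apart in these counts.

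PiggyBac inserts at TTAA, a site that is its own reverse complement, and the sites near the start of a gene show what the vector could have met there. The files give no insertion positions, so the stretches that follow, from RefSeq on build GRCr8, show target sites and not insertions. Of the 62 repair genes with a start-site window of 300 bases (250 before to 50 after the start), 23 (37.1%) held TTAA, against 53.9% of all 33469 windows. The first share counts genes and the second counts windows, which outnumber the 18156 genes listed, so the shares are not of the same unit. The windows of Pold1, Pold2, Ercc2, Ercc3, Parp1, Xrcc6, Fanca and Fance, which are among the genes with the largest changes described below, hold no TTAA. For 3 genes called lower and 3 called higher after screening, 30 bases around the first site are shown 5′ to 3′ on the gene's strand, with TTAA in capitals.
Ercc1: gaacagaaccactTTAAgTTAAagactccc
Pold4: ccattggctagaaTTAAggccccgccccgc
Rad54l: tgcatctacccagTTAAgctacagctacca
Lig4: ctcgtctgcgcctTTAAacgcctccaggct
Rad18: actaaagctgcccTTAAtatttcaattatc
Rad50: gccccgcccaactTTAAagaacagcagctg
These lie at chr1:88124577-88124606 on the plus strand for Ercc1, which has 2 sites in the stretch, chr1:210956051-210956080 on the plus strand for Pold4 and chr5:134841974-134842003 on the minus strand for Rad54l. The others lie at chr16:86220299-86220328 on the plus strand for Lig4, chr4:147377063-147377092 on the minus strand for Rad18 and chr10:38362304-38362333 on the minus strand for Rad50. Such sites were found in windows of genes of both directions.

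As a whole the repair genes held nearly the same share of all insertions in both libraries, while single genes differed widely in both directions. The 78 genes held 6292 insertions before screening, which was 0.412% of all insertions in genes (exact Clopper-Pearson 95% interval 0.401 to 0.422). They held 5257 after screening, or 0.408% (0.397 to 0.420), a ratio of shares of 0.992 (0.957 to 1.03). Insertions were found in 71 of the genes before and in 63 after screening, in 59 of them in both libraries and in 3 of them in neither. Among the other genes of the 18156 listed, 12645 had insertions before and 12400 after screening.

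A gene counted as measured if its insertions in the libraries came to 10 or more, and 68 of the 78 repair genes were. For each, the fold is the ratio of its shares of all gene insertions in the libraries, with an exact 95% interval. Intervals and floors here are those of insertion counts and cover counting error alone, because each condition is 1 library. Amplified reads with no molecular identifier do not each stand for a molecule of their own. A gene was called higher or lower where the fold was at least 4 and the interval excluded 1, which is a rule of size and not a test. By this rule 10 repair genes (14.7%) were called higher after screening, against 19.5% of all 11976 measured genes. A further 20 repair genes (29.4%) were called lower, against 21.7% of all measured genes, and 38 were not called. With at least 50 insertions over both libraries, 7 of 46 repair genes (15.2%) were called higher against 15.5% of 8406 genes, and 11 (23.9%) were called lower against 17.4%. The share called lower thus lay above that of all genes at either minimum, and the share called higher lay below it or next to it. The counts in the role lists below, which hold 1 to 11 measured genes each, stand beside the same 19.5% and 21.7%.

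The median log2 ratio of the 68 genes, after over before and with 0.5 insertions added to each count, was -0.58 (quartiles -2.28 and 0.83), beside -0.01 (-1.60 and 1.45) over all measured genes. It was -0.28 in the 29 measured repair genes that overlap no other gene in the annotation, and -0.37 in the 62 whose counts match those of no other gene. The median gene of the group went from 52 insertions to 29, and the median measured gene from 51 to 43. The interval of the fold held 1 in 16 repair genes (23.5%, against 21.4% of all measured genes). Across the 68 genes the counts before and after screening had a Spearman rho of 0.379, and across all measured genes one of 0.492, both given as descriptions over genes that share the same libraries. No repair gene called higher had 0 insertions before screening, and 9 of those called lower had 0 after it. Of all 11976 measured genes, 749 had 0 before and 971 had 0 after screening.

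**Figure D1:**
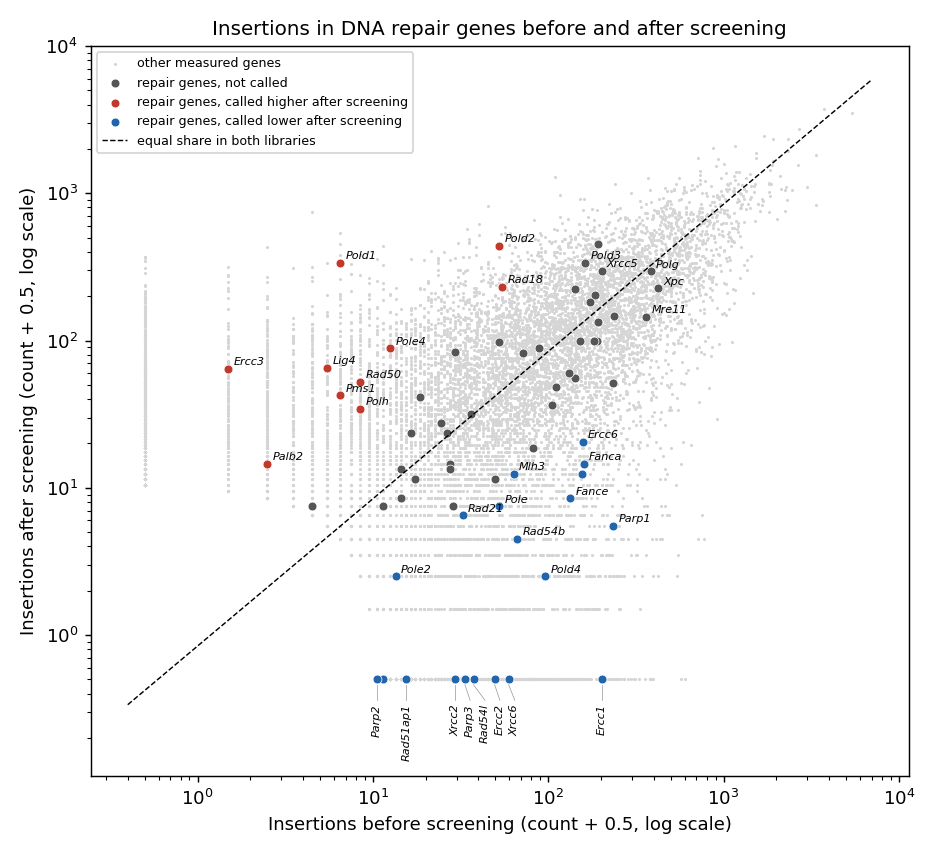
Insertions per gene before (x axis) and after screening (y axis), each as count plus 0.5 on a log scale, for the 68 measured repair genes and, in light grey, all other measured genes, with the dashed line marking equal shares. The 10 genes called higher (red) include Pold1 at 6 before and 337 after, and the 9 repair genes at 0 after screening lie along the bottom, with Ercc1 the farthest right at 202 before.

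The replicative polymerases held some of the largest changes of the group, in opposite directions within the same enzyme. Pold1, the catalytic subunit of DNA polymerase delta, had 6 insertions before and 337 after screening, a share 66.7-fold higher (30.3 to 183). Pold2, its regulatory subunit, had 52 before and 437 after, 9.98-fold higher (7.48 to 13.6). Pold4, the smallest subunit of the same enzyme, had 96 before and 2 after, 40.4-fold lower (10.9 to 338). Pold3, another accessory subunit, had 162 and 336, 2.46-fold higher (2.04 to 2.99), and was not called. The subunits of polymerase delta thus spanned log2 ratios from -5.02 to 5.95. In the annotation Pold4 overlaps Rad9a, and the counts of overlapping genes cannot be told apart from each other where their reads fall in the shared stretch.

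DNA polymerase epsilon, which copies the leading strand, showed the same kind of split. Pole4, a histone-fold subunit, had 12 insertions before and 88 after screening, 8.71-fold higher (4.74 to 17.5). Pole, the catalytic subunit, had 52 and 7, 6.25-fold lower (2.83 to 16.3), and Pole2 had 13 and 2, 5.47-fold lower (1.24 to 49.9), with an interval that comes close to 1. Pole3, the partner of Pole4, had 0 in both libraries. Polg, the mitochondrial DNA polymerase, had the most insertions of the repair genes over both libraries, 383 before and 295 after, and was 1.09-fold lower with an interval that held 1 (0.937 to 1.28). Of the 8 measured replicative and mitochondrial polymerase genes, 3 were called higher, 3 lower and 2 not, with a median log2 ratio of 0.59.

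Nucleotide excision repair, which cuts out bulky lesions such as those made by ultraviolet light, had 4 of 8 measured genes (50%) called lower and 1 (12.5%) called higher, against 21.7% and 19.5% of all measured genes, with a median log2 ratio of -2.19. Ercc1, the partner of the nuclease that cuts on the 5′ side of a lesion, held 202 insertions and then 0, at least 45.7-fold lower. Ercc2, a helicase of the transcription factor TFIIH, went from 49 to 0, at least 10.8-fold lower. Ercc1 and Ercc2 stand next to each other in the annotation and overlap further genes there (Polr1g and Klc3), and the part of this shared position in their counts was not tested. Ercc3, the other TFIIH helicase, went the opposite way, with 1 insertion before and 64 after, 76.0-fold higher, and the single insertion before left its interval wide (13.2 to 3049).

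Among the genes that recognise lesions, Xpc, which senses distorted DNA, had 422 insertions before, the most of all repair genes in that library, and 225 after, 1.58-fold lower (1.34 to 1.86). Xpa, which holds the incision complex together, had 28 and 7, 3.37-fold lower (1.44 to 9.13), and fell short of the rule. The genes of transcription-coupled repair differed from each other. Ercc6 had 157 and 20, 6.61-fold lower (4.14 to 11.1), and Ercc8, which acts in the same step, had 184 and 202, 1.3-fold higher (1.06 to 1.60), not called.

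In the list of base excision and single-strand break repair, the ADP-ribosyltransferases that sense breaks were called lower and the other genes of the list were not. The split holds within this list only, since Aptx, a repair gene outside it that is given below, was called lower with 187 and 0. Parp1, the main sensor of strand breaks, had 235 insertions before and 5 after screening, 39.6-fold lower (16.7 to 123). Parp3 had 33 and 0, at least 7.12-fold lower, and Parp2 had 10 and 0, at least 1.89-fold lower. With the 0 taken as 3 insertions Parp2 was 2.81-fold lower, short of the 4-fold rule. Parp2 and Parp3 overlap other genes in the annotation, Ccnb1ip1 and Rrp9 among them, and Parp1 overlaps none. Xrcc1, the scaffold of this pathway, had 237 and 147, 1.36-fold lower (1.10 to 1.68). Lig3, the ligase that Xrcc1 binds, had 29 and 83, 3.40-fold higher (2.2 to 5.38), and was the highest of the list without being called. The intervals of Lig1, with 24 and 27 insertions, and of the gap-filling polymerase Polb, with 14 and 8, held 1. Of the 7 measured genes 3 were called lower and none higher, and the median log2 ratio was -0.52.

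Mismatch repair, which corrects errors left by replication, held genes of every kind. Pms1, a subunit of a MutL complex, had 6 insertions before and 42 after screening, 8.31-fold higher (3.52 to 23.9), and Mlh3 had 63 and 12, 4.42-fold lower (2.36 to 9.0), while Pms2 had 190 and 99, 1.62-fold lower (1.26 to 2.08), and was not called. Msh3, which finds mismatched loops, had 173 and 181, 1.24-fold higher (1.00 to 1.54). Of the list of 6 genes 1 was called higher and 2 lower, with a median log2 ratio of -0.19. Msh4 and Msh5, homologues of these genes that serve meiotic crossing over and not mismatch repair, had 52 and 97 insertions and 142 and 224 insertions, 2.22-fold (1.57 to 3.17) and 1.87-fold (1.51 to 2.33) higher.

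In nonhomologous end joining, which ligates broken ends directly, 1 of 6 genes was called in each direction. Xrcc6, the smaller subunit of the Ku ring that binds DNA ends, held 59 insertions and then 0, at least 13.05-fold lower. Xrcc5, the larger Ku subunit, had 201 and 297, 1.76-fold higher (1.46 to 2.11). Both proteins are needed to form the ring. The intervals of the Ku subunits do not meet, but the interval held 1 in only 21.4% of all measured genes. Lig4, the ligase of this pathway, had 5 and 65, 15.4-fold higher (6.29 to 49.1), and its partner Xrcc4 had 141 and 55, 2.16-fold lower (1.57 to 3.00). The gap-filling polymerases Poll, with 181 and 98 insertions, and Polm, with 192 and 133, were not called.

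Homologous recombination, which copies the lost stretch from a sister chromatid, had 11 measured genes, 4 of them called lower and 2 higher, with a median log2 ratio of -1.07. Rad54l, a motor protein that serves the pairing with the template, held 37 insertions and then 0, at least 8.03-fold lower, and its relative Rad54b had 66 and 4, 13.9-fold lower (5.18 to 52.5). Xrcc2, a recombination mediator, had 29 and 0, at least 6.21-fold lower. Rad51ap1, which helps to pair strands, had 15 and 0, at least 3.02-fold lower. Rad54l overlaps Lrrc41 and Rad54b overlaps Fsbp in the annotation. The mediators Rad51c and Rad51d were not called, with 27 and 13 insertions and 17 and 11 insertions, and the intervals of both held 1.

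Rad50 and Palb2 were the genes called higher. Rad50, of the MRN complex that first binds the break, had 8 insertions before and 52 after screening, 7.72-fold higher (3.64 to 18.8). Mre11, the nuclease of that complex, had 360 and 144, 2.10-fold lower (1.73 to 2.57), and its partner Nbn had 0 and 6, under the minimum. Palb2, which links Brca1 to Brca2, had 2 and 14, 8.31-fold higher with a wide interval (1.91 to 75.4). Brca1 had 14 and 13, a ratio of shares of 1.10 (0.477 to 2.53). Brca2, a mediator of strand exchange, had 81 and 18, 3.79-fold lower (2.25 to 6.71), just outside the rule. Rad52, an annealing protein, had 3 and 0, too few to be measured.

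The Fanconi anaemia list, whose products unhook cross-linked strands, had 5 measured genes, of which 2 were called lower and none higher, with a median log2 ratio of -1.27. Fance went from 133 insertions to 8, 14.0-fold lower (6.90 to 33.1), and Fanca had 159 and 14, 9.56-fold lower (5.53 to 17.9). Both encode subunits of the core complex, the ubiquitin ligase of the pathway. Fancc, which binds Fance in that complex, had 104 and 36, 2.43-fold lower (1.65 to 3.66), and Fancl, the catalytic subunit of the complex, had 152 and 99 with an interval that held 1. Fancd2, the protein that the core complex modifies, had 36 and 31, a ratio of 1.02 (0.612 to 1.70). Fanca overlaps Zfp276 in the annotation, and Fancb had 0 in both libraries.

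Translesion synthesis, in which special polymerases copy across damaged bases, was a list with 2 genes called higher and none lower. Rad18, the ubiquitin ligase that calls these polymerases to a stalled fork, had 54 insertions before and 232 after screening, 5.10-fold higher (3.78 to 7.0). Polh, which copies past ultraviolet damage, had 8 and 34, 5.05-fold higher (2.29 to 12.6). The related polymerases Poli, with 16 and 23, and Polk, with 26 and 23, had intervals that held 1. Polq, which is better known for joining ends at short homologies, had 234 and 51, 3.86-fold lower (2.84 to 5.34). The median log2 ratio of the 5 genes was 0.76.

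No gene of the damage sensing list was called. Atm, the kinase that signals double-strand breaks, had 88 insertions in each library, a ratio of shares of 1.19 (0.874 to 1.62). Rad17, which loads the checkpoint clamp, had 71 and 82, 1.37-fold higher with an interval that held 1 (0.986 to 1.91), and the clamp gene Rad9b had 49 and 11, 3.75-fold lower (1.92 to 8.0). The list had 3 measured genes. Rad21, a cohesin subunit needed to hold sister chromatids, had 32 and 6, 4.49-fold lower (1.85 to 13.1). None of the 4 measured other ADP-ribosyltransferases was called, from Parp12 with 18 and 41 to Parp16 with 131 and 60. The helicase genes Rad54l2, with 110 and 48, and Ercc6l, with 4 and 7, which fit none of the 12 role lists, were not called either.

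**Figure D2:**
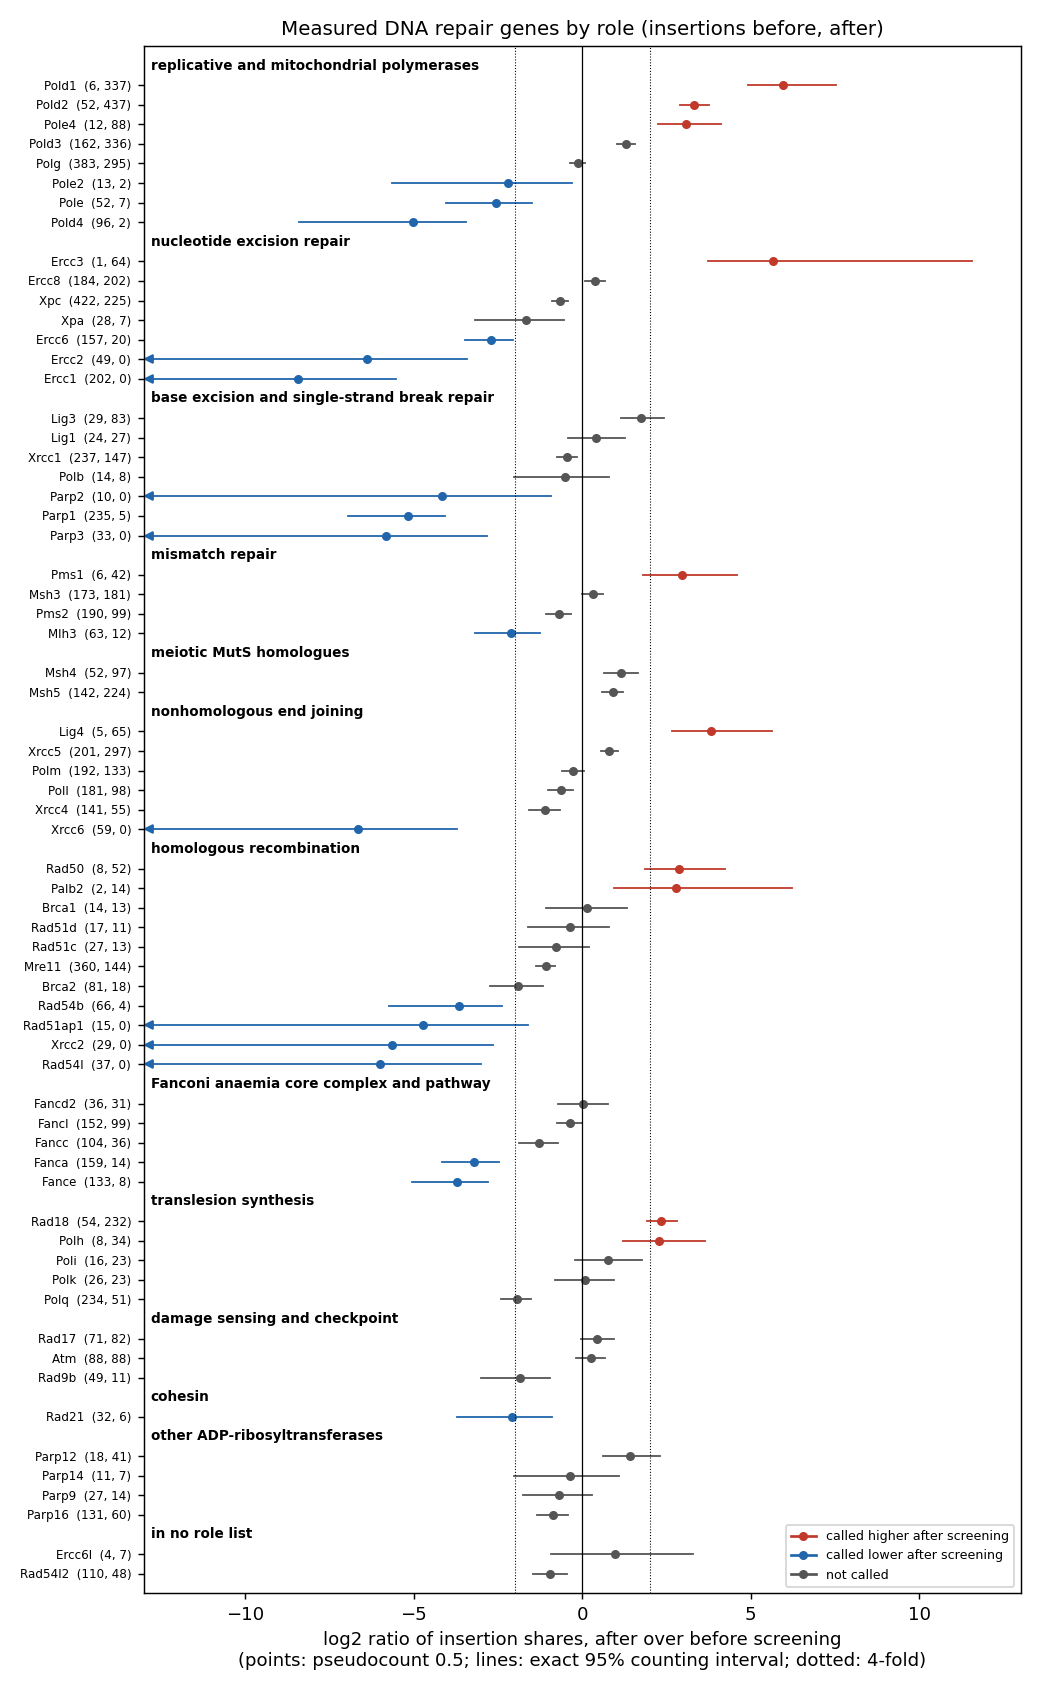
Log2 ratio of insertion shares, after over before screening, for 65 of the 68 measured repair genes by role, with points at a pseudocount of 0.5, lines for the exact 95% counting interval, arrows where it has no lower end, dotted lines at 4-fold and the counts before and after in brackets. Translesion synthesis has 2 of 5 genes called higher and none lower, while the polymerases have 3 on each side.

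Around the threshold the calls separate genes that hardly differ. Mlh3 at 4.42-fold and Rad21 at 4.49-fold lower lie just inside it, and Polq at 3.86-fold, Brca2 at 3.79-fold and Rad9b at 3.75-fold lower lie just outside. Of the 30 called genes, 12 had an interval whose end nearest to 1 was under 4-fold, Palb2 and Pole2 among them. Of the 30, 17 overlap another gene or locus in the annotation, as do 43 of the 78 repair genes. Besides those named above these include Pms1 (Osgepl1 and Ormdl1) and Pole2 (Klhdc1).

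Placed by protein complex, members were called in opposite directions in some complexes and not in others. The grouping into 10 complexes was made after the values had been seen, so it describes and tests nothing. Of all measured genes 41.2% were called, 19.5% higher and 21.7% lower, so sets of unrelated genes can also hold both directions. How often such sets do was not tested. In 4 of the 10, members were called in opposite directions, namely polymerase delta, polymerase epsilon, the TFIIH helicases and the MutL group of Pms1, Pms2 and Mlh3. In the TFIIH pair the log2 ratios were -6.38 for Ercc2 and 5.67 for Ercc3. In Ku, ligase IV, MRN and the bridge from Brca1 to Brca2, a single member was called and the other measured members were not. Nbn of MRN, with 0 and 6 insertions, was under the minimum and could not be called. In the Lig3 and Xrcc1 pair and the meiotic MutS pair no member was called.

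**Figure D3:**
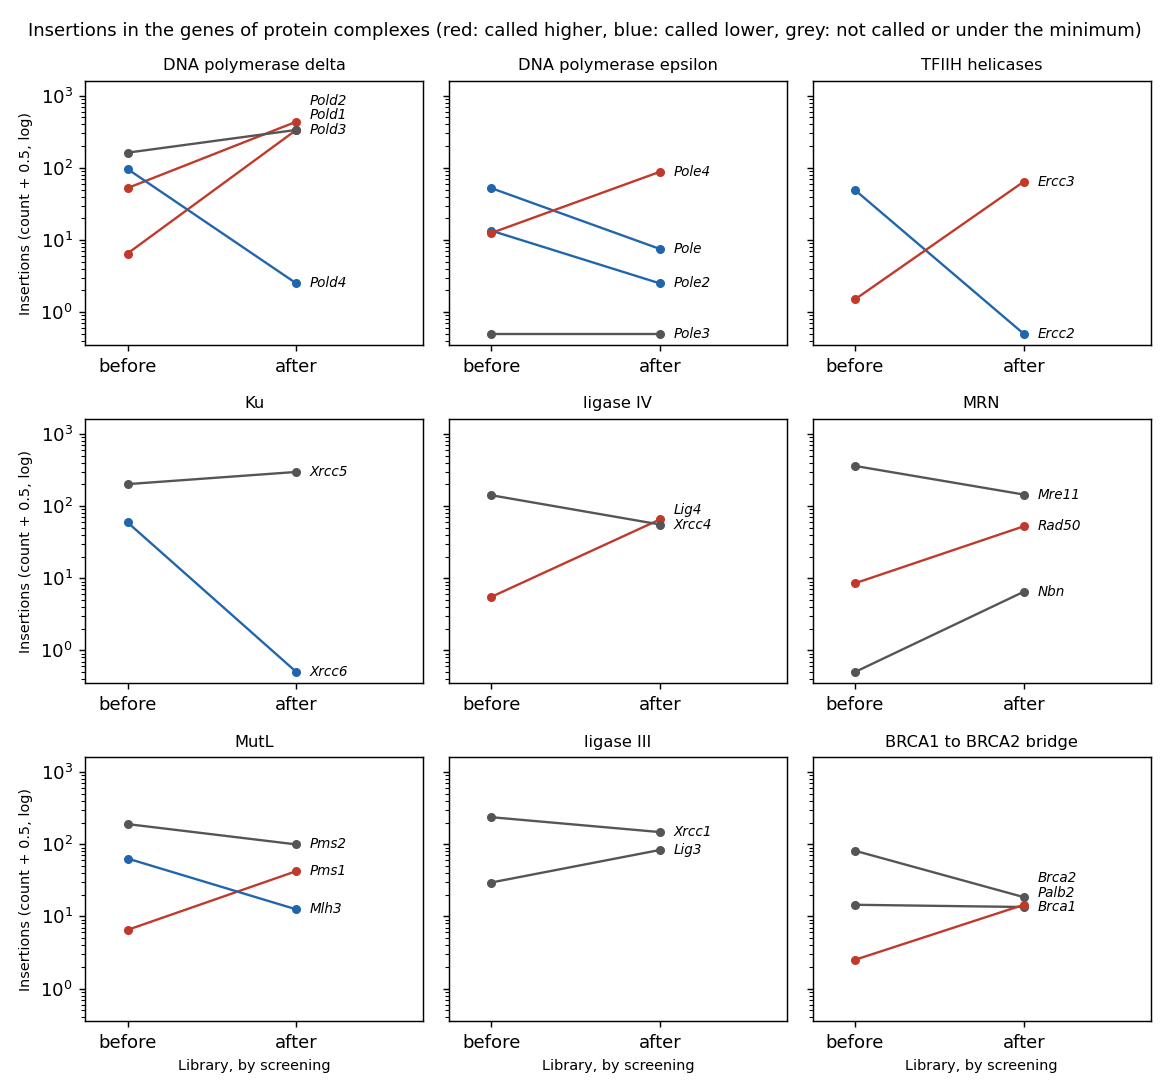
Insertions before and after screening (count plus 0.5, log scale) in the genes of 9 protein complexes, with a line for each gene, coloured red where called higher, blue where called lower and grey where not called or under the minimum. The lines cross in polymerase delta, where Pold1 goes from 6 to 337 and Pold4 from 96 to 2, and in the TFIIH helicases, where Ercc3 goes from 1 to 64 and Ercc2 from 49 to 0.

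The measures within a gene, which the choice of genes did not use, changed less than the counts. The authors count as disrupting those insertions that should break the gene, which in all 71 and 63 repair genes hit were all insertions less those in the reverse orientation, so those for which no orientation is given were taken to lie in exons. Disrupting insertions made up 56.8% (55.6 to 58.1) of the insertions in repair genes before and 57.2% (55.8 to 58.5) after screening, beside 56.5% (56.4 to 56.6) and 57.6% (57.5 to 57.7) in all other genes. Among oriented insertions the forward share was 49.3% (48.0 to 50.7) before and 48.9% (47.4 to 50.4) after. The intervals of the libraries overlap for both measures, so neither a shift to disrupting insertions nor a shift of orientation was detectable in the group at this depth. Exon insertions made up 14.8% (14.0 to 15.7) before and 16.3% (15.3 to 17.3) after, and in all other genes 13.9% and 16.3%.

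The exon share was a property that differed much between genes. Among the 49 repair genes with at least 20 insertions before screening it ran from 0% to 47.5% with a median of 10.7%, and among the 38 such genes after screening from 0% to 56.1% with a median of 12.7%. Poll, Pold2 and Msh5 were high in both libraries, at 47.5% and 56.1%, 38.5% and 33.2%, and 38.0% and 31.3%. Xrcc5 was low in both, at 3.98% and 4.04%, and Xrcc4 had 0% in each. Across the 29 repair genes with at least 20 insertions in each library the exon share before and after had a Spearman rho of 0.647, beside 0.704 across 5956 other genes, again as descriptions across genes. A few genes moved away from this line. Rad54l2 went from 40.9% to 6.25% and Parp16 from 10.7% to 38.3%.

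**Figure D4:**
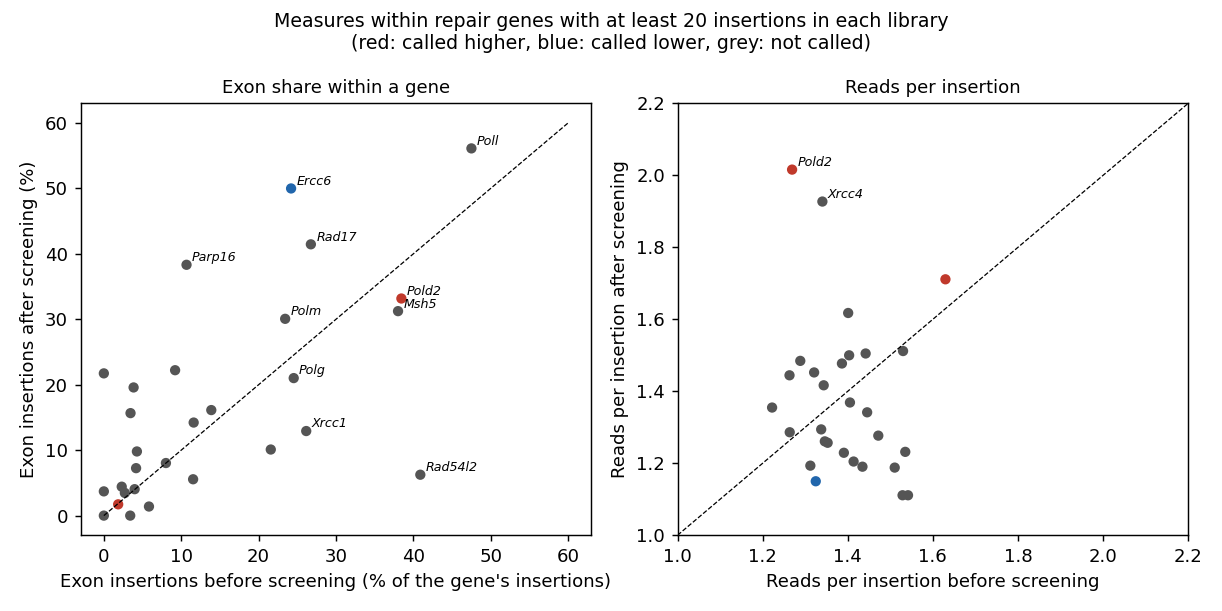
Left, the percentage of a gene's insertions read as exonic before (x axis) and after screening (y axis), and right, reads per insertion, for the 29 repair genes with at least 20 insertions in each library, with dashed lines at equality and red, blue and grey for called higher, called lower and not called. Poll is the highest on the left at 47.5% and 56.1%, Rad54l2 lies farthest below the line, and Pold2 is the highest on the right at 2.02 reads per insertion after screening.

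Reads and insertions gave nearly the same account, which at so few reads per insertion is largely built in and is no independent check. Repair genes pooled had 1.39 reads per insertion before and 1.5 after screening, beside 1.85 and 1.83 in all other genes pooled. The median over genes was 1.37 and 1.29 in repair genes and 1.35 and 1.29 in all other genes, so the pooled difference was not seen in the median gene. The log2 ratio from reads had the sign of that from insertions in 66 of 68 genes, with a Spearman rho of 0.990 between the measures. The others were Lig1, at 0.41 by insertions and -0.03 by reads, and Polk, at 0.07 and -0.003, both near 0. The ratio by reads lay outside the counting interval of the ratio by insertions in Pms1, Pold2 and Xrcc4, and differed by over 1 on the log2 scale in Pms1 alone. Pms1's 42 insertions after screening came from 338 reads, or 8.05 reads per insertion, where its 6 before came from 8 reads, so that its log2 ratio was 2.62 higher by reads. Before screening, reads per insertion ran from 1.21 to 1.63 in the 49 genes with at least 20 insertions.

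Repair genes outside these symbol families were read from a list of 102, of which 86 were in the table and 66 were measured. Of these 16 (24.2%) were called higher and 12 (18.2%) lower, against 19.5% and 21.7% of all measured genes, with a median log2 ratio of 0.53, so the lower median of the 68 genes was not shared by this list. Rfc3, a subunit of the loader of the sliding clamp, went from 0 insertions to 95, at least 29.999-fold higher. Wdr48, a cofactor of the enzyme that takes ubiquitin off Fancd2, had 0 and 50, at least 15.5-fold higher, and the nuclease gene Slx1b had 2 and 65, 38.6-fold higher (10.3 to 326). The lowest were Aptx, which mends failed ligations, with 187 and 0, at least 42.3-fold lower, and the checkpoint adaptor Mdc1 with 146 and 1, 123-fold lower (21.7 to 4888). Dclre1a, a nuclease of cross-link repair, followed with 41 and 0, at least 8.94-fold lower.

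Of the 10 repair genes under the minimum, 7 had insertions. Besides Nbn and Rad52, these included Rad1, of the checkpoint clamp, and Parp6, each with 0 before and 2 after screening, Polg2, the accessory subunit of the mitochondrial polymerase, with 0 and 1, and Fancd2os with 1 and 0. No direction can be read from such counts. Fancb, Pole3 and Rad23b had none in either library, and a count of 0 leaves room for a share as high as 0.000196% in the first library and 0.000233% in the second, the limit that 3 insertions set.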

How the data were processed

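The study's methods describe splinkerette PCR of the genome beside the transposon. The labels instead give an mRNA kit, and the tools in the submitters' processing notes (HISAT2 2.0.5, featureCounts 1.5.0-p3) belong to RNA work. By the study's methods, reads were trimmed with FASTX and aligned and assigned to genes with HaSAPPy. Versions are not given in the sources used here. As a mouse assembly is named in the methods and rat identifiers stand in the table, the build is uncertain, and annotation came from GRCr8 by gene identity only. The authors deposited raw counts per gene of insertions, disrupting, forward and reverse insertions, and reads. Of 48 columns, 38 were not used, among them the authors' own folds, ranks and Fisher p-values. Insertions assigned to no gene (57.3% before and 57.9% after screening) stayed out of totals. Names of the columns carry a closing number without explanation in the labels.

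Shares, folds and exact intervals were computed with Python 3.11.15 and SciPy 1.17.1, and the calculation was tested on simulated data. The simulation drew counting error alone, so it cannot show how the rule behaves under spread between libraries. With 1 library in each of 2 groups no p-value was computed. Named with values are the called genes, those with most insertions and the extremes of each role list. Values of 4 members are not reported here, though counts and medians over the group include them. The members and lists were chosen with earlier results of these data known. Alternatives changed the insertions counted, the unit, the total, the minimum, the fold, the pseudocount and the genes taken.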

Additional observations from a re-analysis of the deposited data

How the results depend on the processing

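Over the alternatives that kept the 4-fold rule, 7 to 11 repair genes were called higher and 11 to 23 lower, against 10 and 20 as reported, and none was called in the opposite direction. Only the minimum of 50 insertions moved a count by over 1.5 times, to 11 genes called lower, where 46 genes are left. With reads or with scaling by the median ratio, which shifts all log2 ratios by 0.11, 23 were called lower, and with a 2-fold rule 15 were called higher and 27 lower. Halved counts left 17 lower and a 0 taken at its floor of 3 insertions left 18. The median log2 ratio ran from -0.28, without genes that overlap another, to -0.68, with scaling by the median ratio. By reads, which at this depth lie close to the insertion counts, 3 of the 68 genes moved beyond their interval, and no gene changed direction in its call. Forward insertions alone (9 higher and 16 lower) and ratios relative to the chromosome's median (9 and 20) were alternatives added once the data had been seen. No paired analysis was possible because neither library has a replicate. Depth limits the genes with few insertions, where 3 insertions decide a bound.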

Other observations

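Called repair genes were compared with the measured genes next to them in the GRCr8 order. Of the 20 called lower, 13 (65%) had an adjacent measured gene that was also called lower, against 43.4% of 2372 genes called lower, and 3 (15%) had one called higher, against 33.6%. Of the 10 called higher, 4 (40%) had one called higher, against 37.4% of 2127, and 5 (50%) had one called lower, against 36%. This comparison was chosen after seeing the data. Neighbours that overlap a gene in the annotation were not left out, among them Ccnb1ip1 beside Parp2, Lrrc41 beside Rad54l and Klhdc1 beside Pole2. Insertions in a shared stretch can thus enter both counts. Ercc1 and Ercc2 were each counted as the other's neighbour. Ercc1 and Ercc2 are neighbours and both had 0 insertions after screening, while Klc3 on the far side of Ercc2 had 200 before and 48 after, and Fosb beside Ercc1 had 9 and 20. Beside Pole2 (13 and 2), Klhdc2 had 58 and 0. On the higher side, Nr1h2 beside Pold1 (6 and 337) had 23 and 360 and Spib on its other side 14 and 0. Map3k2 beside Ercc3 (1 and 64) had 3 and 141 and Bin1 on its other side 358 and 157, and on either side of Lig4 (5 and 65) Abhd13 had 8 and 68 and Arglu1 2 and 43. In contrast, the neighbours of Xrcc6 (59 and 0), Desi1 with 33 and 86 and Mei1 with 28 and 78, were not lower, and those of Ercc6 (157 and 20), Chat with 177 and 185 and Drgx with 104 and 135, were not either. The part that position plays in these counts was not tested.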
